A study of Rattus norvegicus with 12 samples.

Results

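The genes described here are 37 markers of liver cell lineages: 31 genes of hepatocytes and 6 of bile duct and progenitor cells. They were measured on 12 expression arrays of TRL1215, an epithelial cell line derived from rat liver. A gene was represented by the row of the deposited table whose annotation gave its symbol and no other, and by the brightest such row where there were several. This left 36 of the 37, among 22093 genes measured in the same way. Transferrin (Tf) was not analysed here, because its symbol stood in a row that carried a second symbol. The arrays fell into 4 groups of 3: passage-matched control cells with no added compound, and cells kept with PFOA (perfluorooctanoic acid, a fluorinated surfactant) for up to 38 weeks, where T10 stands for a dose of 10 µM, T50 for one of 50 µM and T100 for one of 100 µM. All were passaged weekly in the same serum-containing medium, and 100 ng of total RNA was amplified and labelled for each array. The title of the series concerns traits of tumour cells gained under chronic exposure. The labels do not say if replicates came from separate cultures, so the p-values measure only the spread between these arrays, which may be technical, and the number of arrays limits the precision.

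Hepatocytes arise from foregut endoderm under FOXA factors, and HNF4A and C/EBP-alpha then hold on the genes for plasma proteins, urea synthesis, gluconeogenesis and bile acid synthesis. Bile duct cells and hepatic progenitors come from the same embryonic precursor and are marked by SOX9, EPCAM and osteopontin. Lines of liver epithelial cells grow for many passages and can differ from hepatocytes in which of these genes they use.

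Values are on a log2 scale, so 1 unit is a doubling of signal. The medians of the 12 arrays over all rows lay between 3.73 and 3.81. Above background, for a group, means that the gene's average over the 3 arrays exceeded the 95th percentile of 1153 negative-control rows, averaged over the same arrays. For control the level was 5.42, for T10 5.77, for T50 5.52 and for T100 5.65. The median negative control was at 3.81, 3.81, 3.82 and 3.80 in the same order. Over all genes, the 95th percentile lay between 9.42 (T10) and 9.66 (T100). In bulk RNA, fewer cells that express a gene and less RNA per cell cannot be told apart.

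Of the 36 lineage genes, 1 was above background: Arg1, which encodes the arginase that ends the urea cycle, and it was so in all 4 groups. Among all 22093 genes, 20.4% (control), 17.4% (T10), 19.8% (T50) and 19.1% (T100) were above background, where the lineage genes had 2.78% in each group. The group means of 33 of the 36 were below 4 in every group. The other 3 were Arg1 and the transcription factor genes Foxa2 and Cebpb. Control had 32 of the 36 means below the median negative control, T10 had 27, and T50 and T100 had 29 each. The labelled tissue is liver. Within the set, Alb, Ttr, Apoa1 and Hnf4a of hepatocytes and Epcam, Sox9 and Spp1 of bile duct cells were at the level of negative controls. Arg1, also a hepatocyte gene, was not. Outside the set, 4 of 16 further bile duct genes were above background, as given below.

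**Figure D1:**
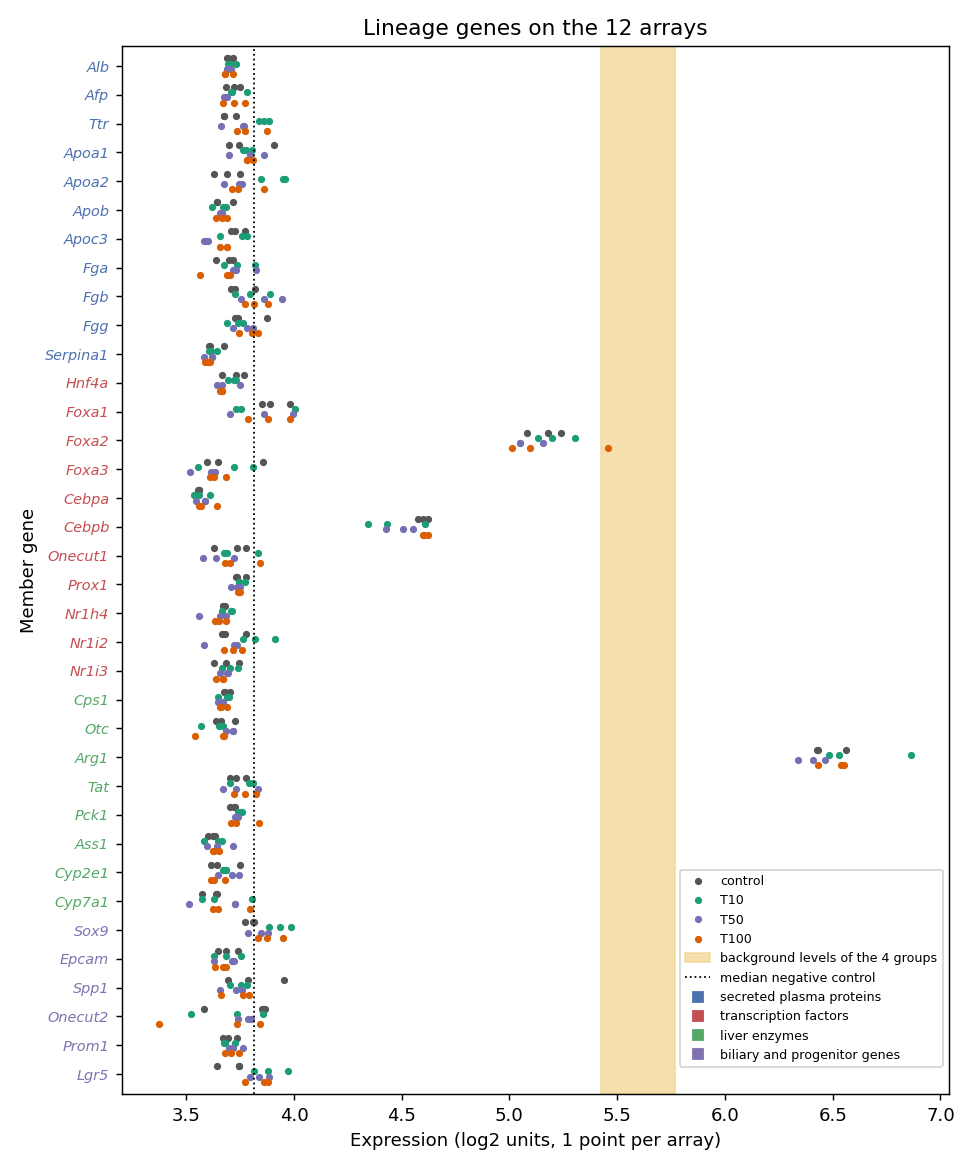
Expression of the 36 lineage genes in log2 units on the x axis, with 1 point per array, coloured by group, and gene names coloured by role; the band spans the background levels of the 4 groups and the dotted line is the median negative control. Arg1 lies right of the band on all 12 arrays, Foxa2 and Cebpb lie between the line and the band except 1 T100 array of Foxa2 just inside its lower edge (5.46, below the T100 level of 5.65), and the other 33 lie around the line.

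The distribution of levels places the lineage genes in the main peak of the negative controls. The median of the 36 means over 12 arrays was 3.71, against 3.84 for all genes. Of the 36, 23 lay between 3.50 and 3.75 and 10 between 3.75 and 4.

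**Figure D2:**
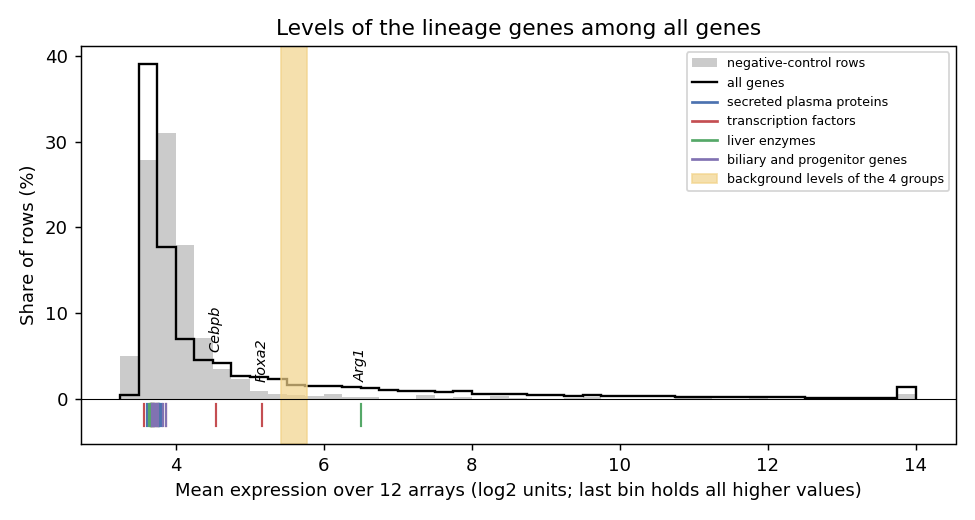
Share of rows (y axis, %) by mean expression over the 12 arrays (x axis, log2 units, bins of 0.25) for all 22093 genes (black line) and 1153 negative controls (grey), with a coloured tick below the axis for each lineage gene; the last bin holds all higher values. All ticks but those of Cebpb, Foxa2 and Arg1 fall in the peak that genes and negative controls share, left of the background band.

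Among the plasma proteins, 0 of 11 measured genes were above background in any group. Alb, which encodes serum albumin, read 3.69, 3.69 and 3.72 in control, 3.73, 3.69 and 3.70 in T10, 3.69, 3.70 and 3.71 in T50, and 3.72, 3.68 and 3.68 in T100. Its fetal counterpart Afp, alpha-fetoprotein, a marker of fetal liver and of some liver tumours, ranged from 3.67 to 3.78 over the 12 arrays. In both genes the groups overlapped and lay below the median negative control. The carrier of thyroid hormone Ttr ranged from 3.66 to 3.88, and the high-density lipoprotein genes Apoa1 and Apoa2 from 3.70 to 3.91 and from 3.63 to 3.96. Apob, the structural protein of very low and low density lipoproteins, ranged from 3.62 to 3.72, and Apoc3, which slows the breakdown of their triglycerides, from 3.58 to 3.78. The fibrinogen chain genes Fga, Fgb and Fgg ranged from 3.56 to 3.83, from 3.71 to 3.95 and from 3.69 to 3.87. Serpina1, which encodes the elastase inhibitor alpha-1-antitrypsin, ranged from 3.58 to 3.67. No array of any of these 11 genes came within 1 unit of the background level of its group.

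The promoters of Alb and Afp are shown because they are the adult and the fetal marker of the lineage, lie near each other on chromosome 14, and were both at the level of negative controls. The sequences are RefSeq's, build GRCr8, from 250 bases before the start of the gene on, 300 bases in all, minus strand. Capitals mark matches, on either strand, to TATAAA, the TATA box, to GTTAAT, a part of the HNF1 site, or to TTGCNNAA, the C/EBP letters; the marked matches do not overlap. Alb (chr14:17906930-17907229) holds GTTAAT once and the C/EBP letters once, and Afp (chr14:17875596-17875895) holds all 3.
Alb: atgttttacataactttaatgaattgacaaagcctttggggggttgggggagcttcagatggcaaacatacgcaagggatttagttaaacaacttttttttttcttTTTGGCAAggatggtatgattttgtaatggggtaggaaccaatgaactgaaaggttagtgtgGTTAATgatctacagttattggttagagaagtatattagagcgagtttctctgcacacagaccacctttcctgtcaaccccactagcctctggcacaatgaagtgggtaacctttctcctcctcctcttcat
Afp: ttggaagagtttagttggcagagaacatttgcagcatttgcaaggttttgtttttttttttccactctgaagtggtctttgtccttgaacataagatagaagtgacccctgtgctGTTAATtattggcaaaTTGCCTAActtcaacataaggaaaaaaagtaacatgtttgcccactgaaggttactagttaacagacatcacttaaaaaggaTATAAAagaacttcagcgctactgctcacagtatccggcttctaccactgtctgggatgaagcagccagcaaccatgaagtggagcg
Of the lineage genes, 24 had a promoter of this length in the table, Tf among them but not Arg1. GTTAAT was found in 25% of the 24, against 7.37% of 27457 rat promoters, the C/EBP letters in 25% against 10.5%, TATAAA in 41.7% against 14.3%, and the FOXA letters TGTTTAC in 4.17% against 3.76%. These are matches of letters and not measured sites. They were counted anywhere in the 300 bases and on either strand, as for TATAAA at -204 in Spp1. The share with TATAAA is thus not a share with a TATA box in its usual place.

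Among the transcription factors, 0 of 11 were above background by the group means, and Foxa2 and Cebpb were nearest to it. Foxa2, an endoderm factor that opens liver chromatin, read 5.08, 5.24 and 5.18 in control, 5.20, 5.13 and 5.31 in T10, 5.16, 5.05 and 5.05 in T50, and 5.46, 5.01 and 5.09 in T100. The 4 groups overlapped, and each group's mean lay below its background level, by 0.26 units in control. By another measure Foxa2 was at the edge: its mean over all 12 arrays (5.16) was higher than that of 95.3% of the negative-control rows. Cebpb, a C/EBP factor of the acute phase response that many cell types use, read 4.62, 4.57 and 4.60 in control, 4.43, 4.34 and 4.61 in T10, 4.50, 4.55 and 4.43 in T50, and 4.60, 4.62 and 4.60 in T100. T10 and control overlapped in Cebpb, while the 3 T50 arrays lay below the 3 controls. At the 90th percentile of the negative controls in place of the 95th, 2 genes were above background in each group, Arg1 and Foxa2.

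The remaining 9 factors lay among the negative controls. Hnf4a, the nuclear receptor at the centre of the hepatocyte network, ranged from 3.64 to 3.77. Cebpa, its partner in adult hepatocytes, ranged from 3.53 to 3.64. The forkhead gene Foxa1, the next nearest to background, read 3.85, 3.89 and 3.98 in control, 3.76, 4.0 and 3.73 in T10, 3.70, 3.86 and 3.99 in T50, and 3.88, 3.79 and 3.98 in T100, with all groups overlapping. Foxa3, another forkhead gene, ranged from 3.52 to 3.85, Onecut1 (HNF6) from 3.58 to 3.84, and Prox1, a homeobox factor of early liver, from 3.71 to 3.78. The 3 nuclear receptors of bile acid and drug metabolism were as low: the bile acid receptor Nr1h4 (FXR) ranged from 3.56 to 3.71, Nr1i2 (PXR) from 3.58 to 3.91 and Nr1i3 (CAR) from 3.63 to 3.74.

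Among the 8 enzymes, Arg1 was above background and 7 were not. Arg1 read 6.56, 6.43 and 6.43 in control, 6.48, 6.86 and 6.53 in T10, 6.34, 6.41 and 6.46 in T50, and 6.43, 6.54 and 6.55 in T100. The mean was 6.47 ± 0.08 for control, 6.63 ± 0.21 for T10, 6.40 ± 0.06 for T50 and 6.51 ± 0.07 for T100 (SD, n = 3 each). Every array lay above its group's background level, and each exposed group overlapped with control. The highest value, on T10 replicate 2, stood apart from the other 11, and without it the difference of T10 from control was 0.033, in place of 0.15. Arg1 differed from control by 0.15 ± 0.09 in T10 (SE; 95% interval -0.05 to 0.35; limma adjusted p = 0.542), by -0.07 ± 0.09 in T50 (-0.27 to 0.13; adjusted p = 0.866) and by 0.03 ± 0.09 in T100 (-0.17 to 0.24; adjusted p = 0.939). Quantile normalization or the covariate described further on turned the sign of the T100 difference (-0.045 and -0.061). They gave 0.27 and 0.32 in T10. Between doses, all 3 T50 arrays lay below all 3 T10 arrays, with a difference of -0.22 ± 0.09 (-0.43 to -0.02; adjusted p = 0.297). At the 99th percentile of the negative controls, which was 9.38 in control, Arg1 was not above background in any group.

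The other steps of the urea cycle in the set were at the level of negative controls. Cps1, which makes carbamoyl phosphate and begins the cycle, ranged from 3.65 to 3.70, Otc, which joins it to ornithine, from 3.54 to 3.73, and Ass1, which makes argininosuccinate, from 3.58 to 3.72. Arg1 is thus the 1 urea-cycle gene of 4 in the set that was above background. Tat, which breaks down tyrosine, ranged from 3.67 to 3.83, and Pck1, a rate-limiting enzyme of gluconeogenesis, from 3.70 to 3.84. Cyp2e1, the ethanol-inducible cytochrome P450, ranged from 3.61 to 3.75, and Cyp7a1, the rate-limiting enzyme of bile acid synthesis, from 3.51 to 3.80.

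**Figure D3:**
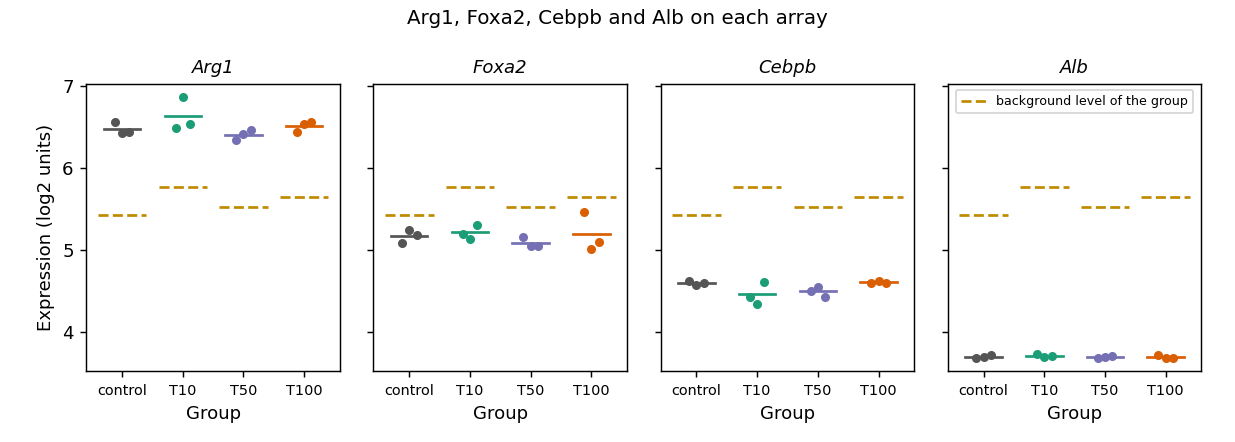
Expression (y axis, log2 units) of Arg1, Foxa2, Cebpb and Alb in the 4 groups (x axis), with 1 point per array, a solid line at the group mean and a dashed line at the group's background level. The means of Arg1 lie between 6.40 and 6.63, above the dashed lines, and those of Foxa2, Cebpb and Alb lie below them in each group.

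Among the bile duct and progenitor genes, 0 of 6 were above background. Sox9, a transcription factor of bile duct and progenitor cells, read 3.77, 3.81 and 3.81 in control, 3.93, 3.88 and 3.98 in T10, 3.79, 3.85 and 3.88 in T50, and 3.95, 3.87 and 3.83 in T100. Lgr5, an R-spondin receptor that marks Wnt-responsive stem cells, read 3.64, 3.75 and 3.74 in control, 3.88, 3.97 and 3.81 in T10, 3.84, 3.79 and 3.88 in T50, and 3.86, 3.77 and 3.88 in T100. For Lgr5 every exposed array lay above the 3 controls, all of them close to the median negative control. Epcam, an epithelial adhesion protein, ranged from 3.63 to 3.75, Spp1 (osteopontin) from 3.66 to 3.95, and Prom1 (CD133) from 3.67 to 3.76. Onecut2, a relative of Onecut1, had 2 rows, with means of 3.72 (the one used) and 3.58.

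To ask whether exposure changed the lineage genes, limma was fitted to all 22093 genes with 4 group means, and p-values were adjusted by Benjamini-Hochberg over all of them. None of the 36 was called at an adjusted p under 0.05 in any of the 6 pairwise comparisons or in the F test across groups. In T10 against control 0 of 36 were called, against 0.869% of all genes, and 6 (16.7%) had an unadjusted p under 0.05 (Ttr, Apoa2, Cebpb, Nr1i2, Sox9 and Lgr5), beside 12.6% of all genes. In T50 against control 0 were called, against 1.31% of all genes, with 2 (5.56%) at an unadjusted p under 0.05 (Apoc3 and Lgr5), beside 10.5% of all genes. In T100 against control 0 were called, against 1.46%, with 2 (5.56%) unadjusted (Ttr and Lgr5), beside 12.4% of all genes.

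Comparisons between doses gave the same count of 0. Against a background of 2.01% for T50 against T10, 3.08% for T100 against T10 and 1.16% for T100 against T50, the lineage genes had 0 calls. An unadjusted p under 0.05 was found for 6 of them (16.7%, beside 14.5% of all genes) in T50 against T10, for 2 (5.56%, beside 18.2%) in T100 against T10 and for 1 (2.78%, beside 11%) in T100 against T50. The F test called 0 of 36, against 3.8% of all genes, with 5 unadjusted (Ttr, Apoa2, Apoc3, Sox9 and Lgr5), which is 13.9% of the set beside 18.1% of all genes. With a background of 0.869% to 3.8%, a set of this size would hold few calls or none in any case, so the counts of 0 are near the background.

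The differences were small on the scale of the array. The median difference of the 36 from control was 0.012 in T10, -0.0041 in T50 and 0.0056 in T100, where the medians over all genes were -0.0038, 0.0045 and 0.0031. For every one of the 36 the 95% interval of the difference lay within 0.5 log2 units of 0 in all 6 comparisons, and the farthest bound was 0.43, for Arg1 in T50 against T10. For genes below background these intervals limit the signal and not the RNA, since a dim row can miss a change of a rare transcript. Replicates lay close together. The SD within groups had a median of 0.051 over the 35 members not above background, against 0.068 over 17512 such genes of the table.

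**Figure D4:**
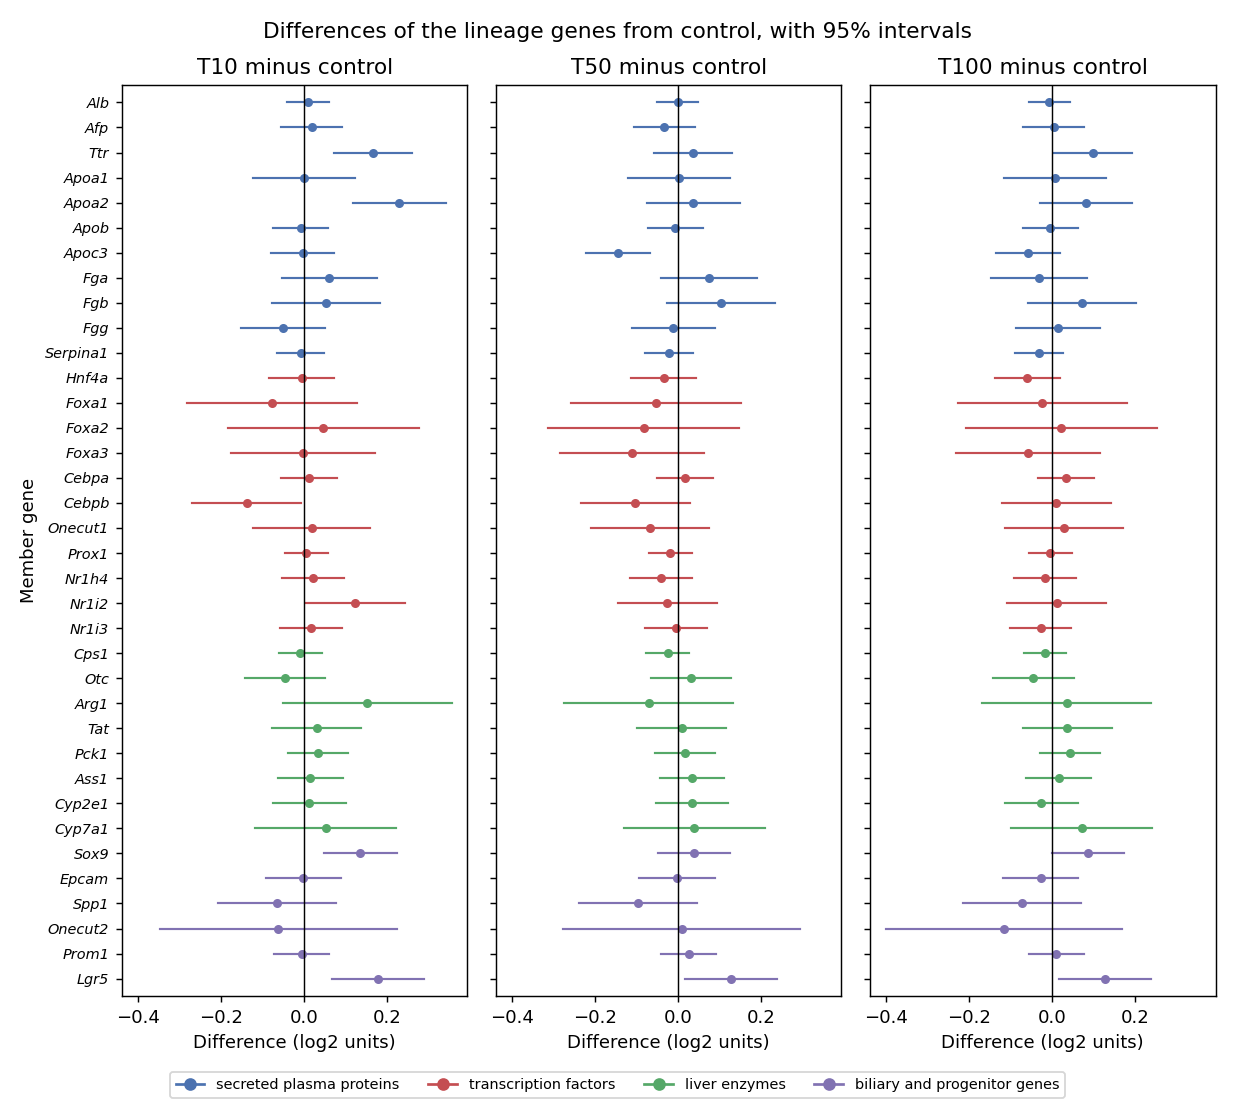
Difference from control in log2 units (x axis) for each lineage gene (rows, coloured by role) in T10, T50 and T100; points are fitted differences and lines their 95% intervals, unadjusted, from limma with n = 3 arrays in each group. The points lie between -0.14 and 0.23, and the intervals that leave out 0 belong to genes whose adjusted p was above 0.05.

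In T10 against control, the 6 largest differences in size were those of Apoa2, Lgr5, Ttr, Arg1 (0.15, given above), Cebpb (-0.14 ± 0.06, adjusted p = 0.375) and Sox9. Apoa2 read 3.96, 3.85 and 3.95 in T10, against 3.75, 3.69 and 3.63 in control. The difference was 0.23 ± 0.05 (SE, limma adjusted p = 0.0797), with no overlap. Over the other settings it ran from 0.14 to 0.26, with an adjusted p from 0.0606 to 0.699. Lgr5 differed by 0.18 ± 0.05 (adjusted p = 0.167), Ttr by 0.17 ± 0.04 (adjusted p = 0.123) and Sox9 by 0.14 ± 0.04 (adjusted p = 0.183) in T10 against control, again with no overlap. The difference of Sox9 ran from 0.083 to 0.16 over the other settings (adjusted p from 0.129 to 0.790). Apoc3 read 3.60, 3.59 and 3.58 in T50, against 3.71, 3.73 and 3.77 in control, and differed by -0.14 ± 0.03 (adjusted p = 0.0913). It passed the threshold in 3 of the other settings tried, with an adjusted p of 0.0476 after quantile normalization, 0.0452 when each array's 95th percentile over genes entered as a covariate, and 0.0366 without T10 replicate 2. Over all settings tried its adjusted p ran from 0.0366 to 0.253. None of the values of Apoa2, Lgr5, Ttr, Sox9 and Apoc3 came near background. T10 also had the highest 95th percentile of the negative controls (5.77, against 5.42 in control), and its part in the differences of T10 was not tested.

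Arrays that did not overlap with control were counted for the whole set. In T10, 5 of the 36 (13.9%) had all 3 arrays above all 3 controls (Ttr, Apoa2, Pck1, Sox9 and Lgr5), against 6.32% of all genes, and 0 had all 3 below, against 10.6% of all genes. In T50, 2 were above (Pck1 and Lgr5; 9.75% of all genes) and 3 below (Apoc3, Cebpb and Cps1; 7.29% of all genes). In T100, 4 were above (Ttr, Cebpa, Sox9 and Lgr5; 10.7% of all genes) and 1 below (Apoc3; 7.39% of all genes). The 3 comparisons share the same 3 control arrays, so Lgr5, which is counted in each, does not add up to 3 separate observations.

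Other lists of liver genes placed the set in context. Of 33 further hepatocyte genes measured, such as those for clotting factors, bile salt transporters and cytochromes P450, 0 were above background in any group, and their means over 12 arrays ran from 3.57 to 3.89. Of 16 further bile duct genes 4 were above background: Sox4, a transcription factor of the early bile duct (mean over 12 arrays 10.3), the Notch receptor Notch2 (8.0), the chloride channel Cftr (7.18) and the Notch target Hes1 (6.95). The bile duct keratins Krt7 (3.94) and Krt19 (3.78), named after their values were seen, were below it. Of 18 further progenitor and fetal liver genes 7 were above background, among them Tnfrsf12a, the TWEAK receptor of proliferating progenitors, the adhesion gene Ncam1, the hyaluronan receptor Cd44 and the R-spondin receptor Lgr4. Over all genes 20.7% were above background in at least 1 group.

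Against control, 0 of the hepatocyte and 0 of the bile duct genes of these lists were called in any exposed group. Of the 18 progenitor and fetal genes 1 was called, in T100. Over all genes 0.869% (T10), 1.31% (T50) and 1.46% (T100) were called. Lists of this size would thus hold few calls or none in any case. The called gene was Gpc3, a glypican of fetal liver and of hepatocellular carcinoma. It read 8.57, 8.32 and 8.40 in T100, against 6.90, 6.93 and 7.24 in control, with no overlap. Gpc3 rose by 1.40 ± 0.12 (SE; 2.65-fold; limma adjusted p = 0.00141) in T100, and the call held in each of 18 other settings. Between doses, T100 exceeded T10 by 0.95 (limma adjusted p = 0.00638) and T50 by 1.44 (adjusted p = 0.00093), so the levels did not follow the order of dose. The call against T10 ended when each array's 95th percentile over genes entered as a covariate (0.381). T100 against T10 also called Hes1 of the bile duct list and Ncam1 and Lgr4 of the progenitor list, beside 3.08% of all genes. Each of these calls ended after quantile normalization and with the covariate. Among the bile duct genes, none called against control, Cftr read 7.53, 7.66 and 8.22 in control. Its values were 6.74, 7.20 and 7.10 in T10, 6.77, 6.90 and 7.06 in T50, and 7.01, 6.85 and 7.19 in T100, with no overlap with control. In T10 Cftr differed by -0.79 ± 0.18 (SE, limma adjusted p = 0.0951).

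Markers of other liver cell types were counted in the same way. The shares of all genes called against control, to set beside them, were again 0.869% (T10), 1.31% (T50) and 1.46% (T100). Of 18 markers of stellate cells and fibroblasts 6 were above background in every group. Vim was at the ceiling of the values (19.9) on all 12 arrays, where a change cannot be seen. Against control, the actin gene Acta2 (-2.21 ± 0.30, adjusted p = 0.0114) and Fbln2 (-1.51 ± 0.20, adjusted p = 0.0098) fell in T10, 0 were called in T50, and Acta2 (2.04 ± 0.30, adjusted p = 0.0134) and the collagen gene Col1a1 (2.36 ± 0.29, adjusted p = 0.00712) rose in T100. Averaged over the list, the level ran from 6.76 to 7.0 in the T100 arrays, from 6.36 to 6.53 in T50 and from 6.21 to 6.46 in T10, against 6.45 to 6.54 in control. This average rests on few bright genes: the median change of the 18 was -0.0077 in T100 and 0.016 in T10, and 12 of the 18 were not above background in any group. The call of Acta2 ended without control replicate 1 or T10 replicate 1 in T10 (adjusted p of 0.0537 and 0.0548) and without control replicate 2 or 3 in T100 (0.0667 and 0.0523). With the covariate named above, Acta2 in T10 (0.395) and T100 (0.0564) and Fbln2 in T10 (0.242) were not called. This covariate was lower on each T10 array than on any other array, so it cannot be cleanly told apart from the T10 group. Of 14 endothelial markers 1 was above background, the angiopoietin receptor gene Tek, called lower in T10 (-0.64 ± 0.11, adjusted p = 0.0258) but not without control replicate 1, 2 or 3 (0.108, 0.105 and 0.0570) or T10 replicate 1 or 3 (0.0833 and 0.0812), with the replicate block (0.0519) or with the covariate (0.455). Of 14 macrophage and leukocyte markers 1 was above background, Cd14, which was not called. The T cell gene Cd3e, named after its values were seen, was below background and was called lower in T10 and T50, at -0.55 ± 0.05 and -0.38 ± 0.05 (SE; adjusted p of 0.00111 and 0.00482). The part of these other cell type markers in the values of the lineage genes was not tested.

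**Figure D5:**
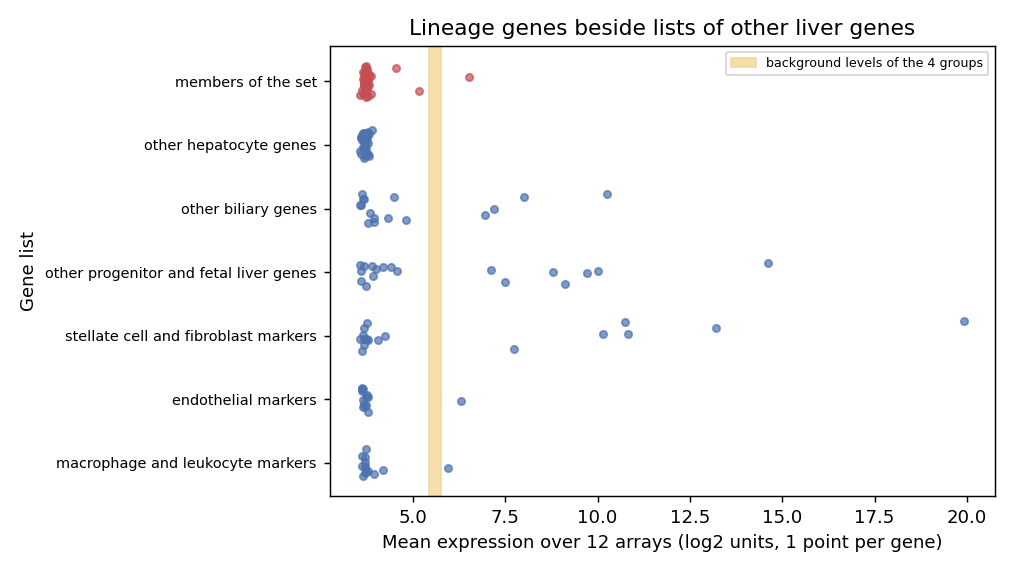
Mean expression over the 12 arrays (x axis, log2 units) of each measured gene (points, spread vertically for view) in the lineage set and in 6 other lists (rows), with a band at the background levels. In the lineage set 1 of 36 points lies right of the band and in the other hepatocyte list 0 of 33, while 4 bile duct, 7 progenitor and 6 fibroblast genes lie right of it.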

How the data were processed

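The authors' deposited table holds log2 expression values, 1 per probe set and array, for 70580 rows and 12 arrays. The log base was inferred from the range of 2.87 to 19.9. Per the labels' protocols, 100 ng of total RNA was amplified and labelled with the Affymetrix WT Plus kit; background correction, probe summary, normalization and build: not given in the sources used here. By the platform's annotation, 1 symbol belonged to 23446 rows, several to 505 and none to 44891, beside 1738 control rows. Symbols were updated by Entrez number (22077 rows matched, 1 renamed), and the brightest row of a gene was kept.

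limma 3.58.1 in R 4.3.3 (lmFit, eBayes) was fitted to 12 arrays and 4 group means without a block, two-sided, with Benjamini-Hochberg over 22093 genes and a threshold of 0.05. The fit was tested on simulated data with independent noise for each gene and added changes larger than any seen in the lineage genes. That test did not cover changes as small as theirs. Changed settings are listed in the closing section. All members are named; full values were given to those above background or called, to the 3 nearest the background level, and to Alb, Sox9, Lgr5 and others with small p-values, chosen after their values were seen. From each other list the 4 brightest genes above background, and up to 4 called genes above background with the smallest F-test p, could be named. Members and lists were chosen with earlier results of these data known.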

Additional observations from a re-analysis of the deposited data

How the results depend on the processing

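The number of lineage genes called was 0 in all 7 tests and stayed 0 with the genes limited to those above background (which leaves Arg1 alone of the 36), the mean of all probe sets of a gene, an intensity trend in eBayes, or the replicate block. It was 1 (Apoc3) for T50 against control after quantile normalization and 1 when each array's 95th percentile over genes entered as a covariate. Leaving out 1 array gave 0 to 1 for T50 against control, T50 against T10 and the F test (Apoc3, without T10 replicate 2; adjusted p of 0.0366, 0.0215 and 0.0275) and 0 to 1 for T100 against T10 (Cebpb, without T10 replicate 3; adjusted p = 0.0448), and 0 for the other 3. The number above background was 2 in each group at the 90th percentile of the negative controls and 0 in each at the 99th, and 1 in each under the other settings. Counts over all genes moved by over 1.5 times: after quantile normalization, 457 in place of 289 (T50 against control), 521 in place of 323 (T100 against control), 253 in place of 443 (T50 against T10) and 349 in place of 681 (T100 against T10). With the covariate they were 15 in place of 192 (T10 against control), 49 in place of 443 (T50 against T10), 3 in place of 681 (T100 against T10), 146 in place of 256 (T100 against T50) and 458 in place of 840 (F test). Without single arrays they were 67 to 214, 117 to 278 and 89 to 345 for T10, T50 and T100 against control, 191 to 431 for T50 against T10, 246 to 780 for T100 against T10, 114 to 265 for T100 against T50, and 507 to 866 for the F test. The covariate read 9.36 to 9.48 on the T10 arrays and 9.53 or more on every other array. In comparisons with T10 it cannot be cleanly told apart from the group. The cause of these shifts in the counts was not tested. Replicate numbers showed no sign of pairing the arrays. Deviations from the group mean correlated at -0.22 to 0.11 in same-numbered arrays of different groups, and at -0.23 to 0.26 in differently numbered ones. Of the 12 arrays, 4 correlated best with their own number. With means of 3 arrays, such deviations can miss a weak pairing. With the replicate block 0 lineage genes were called, and 147 in place of 192 genes in T10 against control. Signals within the range of the negative controls limit what can be seen of 35 of the 36 genes.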
